A study of Mus musculus with 40 samples.

Results

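The cytosolic ribosome is built from ribosomal RNAs and a fixed set of proteins, the Rpl proteins of the large subunit and the Rps proteins of the small subunit. Most of their messenger RNAs begin with a C followed by a run of pyrimidines, the terminal oligopyrimidine (TOP) tract, through which mTORC1 and the RNA-binding protein Larp1 set how much of each is translated. In neurons the same proteins are made in the cell body and in dendrites, where local translation serves synaptic plasticity. The transcripts described here are all entries of the cortical expression table whose mouse RefSeq symbol is Rpsa or begins with Rpl, Rplp or Rps and a digit, without the Rps6k kinases. They came to 79 of 6831 transcripts, from 77 of 5867 symbols. Of these, 42 transcripts of 41 genes belonged to the large subunit, 32 of 31 genes to the small subunit and 3 to the acidic stalk (Rplp0, Rplp1 and Rplp2). The remaining 2 carried names of the family without being core subunits, namely Rpl7l1, a nucleolar paralog of Rpl7, and Rpl34-ps1, whose symbol is that of a pseudogene. Family members that are not among these 79 were not analysed here.

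The RNA came from dissected cortex of male C57BL/6 mice of 12 weeks. Mice received an intraperitoneal injection of memantine, a blocker of the NMDA receptor channel, or of saline on each day, 1 h ahead of either a sham procedure or high-frequency head impacts (HF-HI), and tissue was taken 24 h after injury. The labels gave 10 libraries in each of 4 groups, 40 in all, with saline or memantine crossed with sham or HF-HI, whereas the submitters' design text states 4 samples per group. All mice were of 1 strain, the labels name no genetic change, and nothing in them marks a batch. The authors' variance-stabilised values were inverted to normalised counts, which are read counts divided by a size factor for each library. Summed over the table, the recovered reads ran from 13322402 to 17529642 per library. Markers of excitatory cortical neurons (22 transcripts, 50160 to 80785 normalised counts per library in sum), of striatum (29 transcripts, 56695 to 88335) and, in part of the libraries, of choroid plexus (3 transcripts, 4970 to 40020) were all present. The labels do not say that libraries came from separate animals, so p-values measure only the spread between these libraries, which may be technical.

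RefSeq promoter sequences on build GRCm38.p6 were on hand for 56 of the 77 symbols, with 65 start sites. Read on the transcribed strand, a C at the start site followed by at least 4 C or T was found at 13 of the 65 starts (20%), against 823 of 32851 starts of all genes (2.51%). A run of at least 8 C or T within the 30 bases centred on the start was found at 24 (36.9%) against 12.0% of all. Annotated starts can lie some bases away from the base where transcription begins, so a start without a tract says only that these letters are not in this window. The 30-base windows below, 15 bases before the start site and 15 from it on, are those of members on which the results turn, with each run of at least 8 pyrimidines in capitals.
Rps27, chr3:90213634-90213663, minus strand: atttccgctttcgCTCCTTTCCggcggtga
Rpl38, chr11:114668565-114668594, plus strand: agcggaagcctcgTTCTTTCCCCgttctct
Rpl35a, chr16:33056467-33056496, plus strand: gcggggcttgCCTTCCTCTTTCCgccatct
Rps15a, chr7:118116133-118116162, minus strand: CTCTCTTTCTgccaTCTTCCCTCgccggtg
Rpl39, chrX:37085208-37085237, minus strand: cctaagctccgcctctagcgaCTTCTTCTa
Rpl4, chr9:64173372-64173401, plus strand: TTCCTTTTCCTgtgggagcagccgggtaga
Rps16, chr7:28350674-28350703, plus strand: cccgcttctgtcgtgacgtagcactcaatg
Rpl12, chr2:32961697-32961726, plus strand: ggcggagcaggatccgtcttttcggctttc
The first 4 have a tract at the start site itself. In Rpl39 and Rpl4 the run lies after or before it, and the windows of Rps16 and Rpl12 hold none of 8 or more. Rpl35a has 3 annotated starts and the one with a tract is shown.

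The 79 transcripts together took 1.11% of all counts in the table (1.11% ± 0.0427, SD over 40 libraries), from 1.03% to 1.20%. Mean normalised counts ran from 618 for the NM_023372 transcript of Rpl38 to 6292 for Rpl3, with a median of 2025, against a median of 1233 over the whole table. Levels of different genes are compared here per kilobase of the GENCODE M21 transcript paired with the RefSeq entry, which was available for 78 of 79. On that scale of mean normalised count per kilobase, Rps29 (7269), Rpl41 (6406) and Rplp1 (6059) stood highest. Rps29 and Rpl41 are among the smallest ribosomal proteins, and Rplp1 is one of the stalk proteins that bind elongation factors. Rpl7l1 (238), Rps15a (426) and Rps20 (430) stood lowest. The paired transcripts of Rps15a and Rps20 are annotated as 5179 and 3706 nucleotides long, mostly outside the coding part. Per kilobase of coding sequence Rps15a was at 5653 and Rps20 at 4468, while Rpl7l1 stayed lowest at 839 and Rpl41, Rps29 and Rplp1 were again the 3 highest. The position of Rpl7l1 thus did not turn on the choice of length, whereas those of Rps15a and Rps20 did.

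As a set, the transcripts spread more between libraries of 1 group than their group means differed. From lowest through median to highest library, the summed share of counts was 1.04%, 1.11% and 1.16% for saline sham and 1.03%, 1.10% and 1.15% for memantine sham. It was 1.06%, 1.10% and 1.20% for saline HF-HI and 1.07%, 1.10% and 1.19% for memantine HF-HI. The means were 1.11% ± 0.0360 and 1.09% ± 0.0409 in the sham groups and 1.12% ± 0.0487 and 1.11% ± 0.0436 in the impacted ones (SD, n = 10 each, saline first). The 4 groups overlapped over most of their ranges. In bulk cortex, fewer cells that make much ribosomal protein RNA and less of it per cell cannot be told apart.

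**Figure D1:**
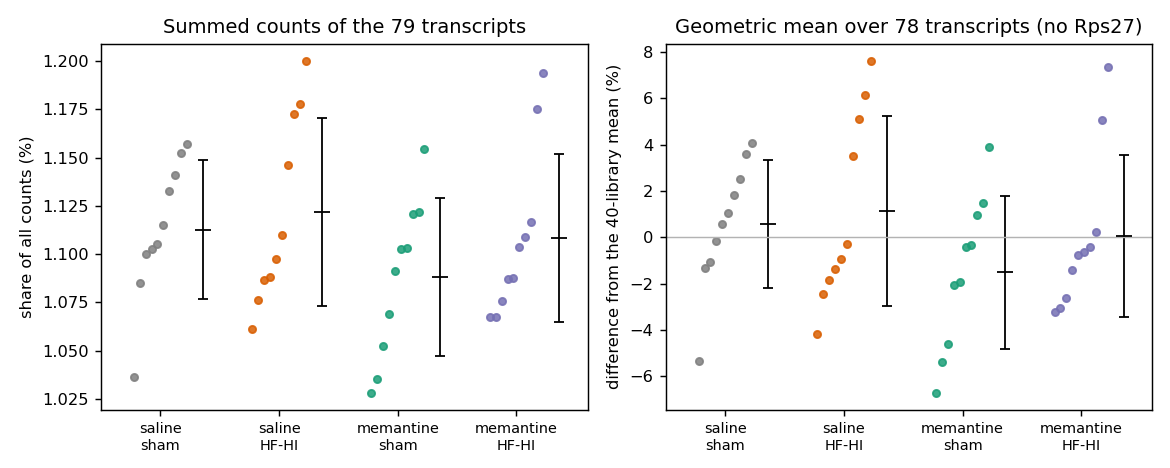
Each point is 1 library, with the mean and SD of its group (n = 10) as a bar beside it. Left, share of all counts in the table (%) taken by the 79 ribosomal protein transcripts; right, geometric mean of 78 of them (Rps27 left out) as the difference (%) from the mean of the 40 libraries. All 4 groups overlap, and single libraries lie between -6.73% and 7.63%.

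Between libraries the transcripts moved together. The geometric mean of 78 members (all but Rps27, described below) lay 7.63% above the mean of the 40 libraries in saline HF-HI replicate 1 and 7.34% above it in memantine HF-HI replicate 1. Next highest were saline HF-HI replicate 8 (6.14%), saline HF-HI replicate 10 (5.11%) and memantine HF-HI replicate 8 (5.06%). The geometric mean was lowest in memantine sham replicate 5 (-6.73%), memantine sham replicate 10 (-5.40%), saline sham replicate 1 (-5.35%) and memantine sham replicate 7 (-4.62%). In saline HF-HI replicate 1, 74 of the 78 members were above their own mean, and in memantine sham replicate 5 only 4 were. The highest libraries named here were thus all from impacted mice, and most of the lowest were memantine sham. Every group still held libraries on both sides of the mean. The highest value was 4.07% in saline sham and 3.89% in memantine sham. The lowest was -4.18% in saline HF-HI and -3.23% in memantine HF-HI. After the group means were taken out, the median correlation between 2 members over the 40 libraries was 0.35 (3003 pairs, 90.1% of them positive), against -0.0013 between all pairs of measured transcripts. It was 0.33 among large subunit and stalk transcripts, 0.41 among small subunit transcripts and 0.37 between the subunits, so that transcripts of the 2 subunits moved together about as much as those within one.

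Single members followed the rest to different degrees. The correlation of a member with the mean of the others had a median of 0.59 and was over 0.5 for 55 of 79. It was highest for Rpl10 (0.82), Rpsa (0.80), which is also known as a laminin receptor, Rpl27 (0.80) and Rpl3 (0.80). It was lowest for the NM_207635 transcript of Rps24 (0.01), for Rps27 (0.03) and for the NM_001048058 transcript of Rpl38 (0.04). Each of these 3 belongs to a gene with a second transcript in the table or a near-identical copy.

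Beyond counting error, the spread over the 40 libraries was smallest for Rpl4 (coefficient of variation 3.26% after the counting part was taken out), Rpl32 (3.49%) and Rps3a1 (3.64%). It was largest for Rps27 (46.9%), the NM_023372 transcript of Rpl38 (13.9%) and Rpl35a (11.8%). The median total coefficient of variation of the members was 5.76%, and that of all measured transcripts 7.99%. Ribosomal protein genes have many processed pseudogenes. Of the 78 transcripts with a GENCODE M21 sequence (all but Rpl34-ps1), 40 shared over 50% of their 50-base words with transcripts of other genes. The share was counted over all other genes at once. The share was 93.3% for Rpl9 and 98.7% for Rps27. Counts of members with high shares depend on how ambiguous reads were assigned and are uncertain to that degree.

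The libraries in which the members stood high also differed in other transcripts. The 10 other transcripts most like the members' mean were Eef1a1 (r = 0.76 over 40 libraries), Itm2c (0.75), Psmc5 (0.75), Slc25a4 (0.75), Apoe (0.73), Cox7a2l (0.73), Atp5j2 (0.72), Rpn1 (0.71), Saraf (0.71) and Nsg1 (0.70). Eef1a1, the elongation factor that brings aminoacyl-tRNA to the ribosome, is itself a TOP messenger RNA, but Tpt1, another one, had r = -0.13. The mean of 26 other TOP messenger RNAs had r = 0.36 (rho 0.51), and r = 0.61 without the 2 libraries farthest from its median. Slc25a4, Cox7a2l and Atp5j2 belong to mitochondrial energy metabolism. The mean of 66 oxidative phosphorylation transcripts followed the members with Pearson's r = 0.69 and Spearman's rho = 0.70 (0.69 without the 2 libraries farthest from the median). Transcripts that ran against them most included Septin3 (-0.77), Gramd1b (-0.73) and Srgap2 (-0.73). All these correlations were taken between measures of the same libraries after group means were removed, and they are given as a description.

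Transcript length also moved with the members' level. Member transcripts are short, with a median length of 814.5 nucleotides against 4035 for the other transcripts in the table. For each library the slope of the log2 deviation from the transcript's mean on log2 length was taken over 6625 other transcripts. The members' level fell as that slope rose (r = -0.81, rho = -0.81, 40 libraries, and r = -0.78 without the 2 farthest). A correlation with the total count of the library was 0.12 (rho 0.09). The mean of the striatal markers gave 0.44 and that of 4 endothelial markers -0.46. The summed striatal markers were at 64771 ± 3979 in saline HF-HI, 70404 ± 6898 in memantine HF-HI, 72743 ± 7790 in saline sham and 73047 ± 8747 in memantine sham (SD, n = 10 each), so they were lowest in saline HF-HI. The part of length, RNA quality or dissection in the members' level was not tested.

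**Figure D2:**
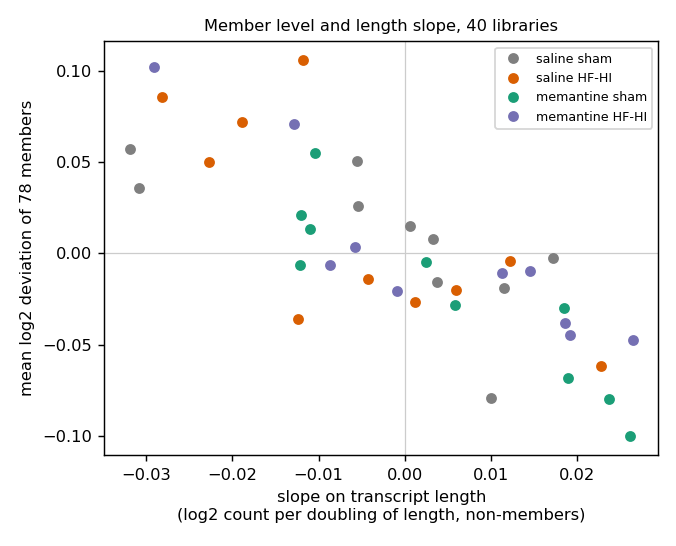
Mean log2 deviation of 78 ribosomal protein transcripts (y axis, Rps27 left out) against the slope of log2 deviation on log2 transcript length over 6625 other transcripts (x axis), 1 point per library, coloured by group. Libraries with a more negative slope, in which short transcripts ran higher, mostly had higher ribosomal protein levels (r = -0.81 after group means were removed).

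Differences between groups were fitted with limma across all 6831 transcripts on the deposited log2 scale, and a member is called here at an unadjusted p under 0.05. Changes in percent come from the same fit on log2 of the normalised count plus 1. After Benjamini-Hochberg adjustment over all transcripts, no member had an adjusted p under 0.1 in any of the 5 contrasts. The smallest adjusted p among them was 0.528 for head impact under saline, 0.896 for head impact under memantine, 0.933 for memantine among impacted mice, 0.616 for memantine among sham mice and 0.999 for the interaction. Over all transcripts tested, 0.205%, 0.0146%, 0%, 0.0293% and 0% in the same order passed that threshold.

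For head impact under saline no difference in a ribosomal protein transcript passed the test. No member was called by limma (0 of 79), while 9.53% of all transcripts were (4.58% higher and 4.95% lower). The median member difference was 0.0054 on the deposited log2 scale and 0.68% in normalised count without Rps27. Of the member estimates 47 of 79 were positive, where 49.9% of those over all transcripts were. The 95% interval of each of the 78 members other than Rps27 lay within 20% of no change, and for 67 of them within 10%. The member with the smallest p was Rpl7, a large subunit protein, with a lowest, median and highest normalised count of 3263, 3347 and 3564 in saline sham and 3321, 3495 and 3811 in saline HF-HI. The groups overlapped and the difference was 3.91% (p = 0.0509, adjusted p = 0.528, limma). The smallest p among negative estimates was that of Rps2 (p = 0.127, limma), at 2427 ± 133 in saline sham and 2350 ± 115 in saline HF-HI (SD, n = 10 each). All 3 stalk transcripts and both related ones were among those not called. With the length slope as a covariate 2 members were called and with the striatal marker mean 1, and the latter moved the median member difference from 0.0054 to 0.0139.

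**Figure D3:**
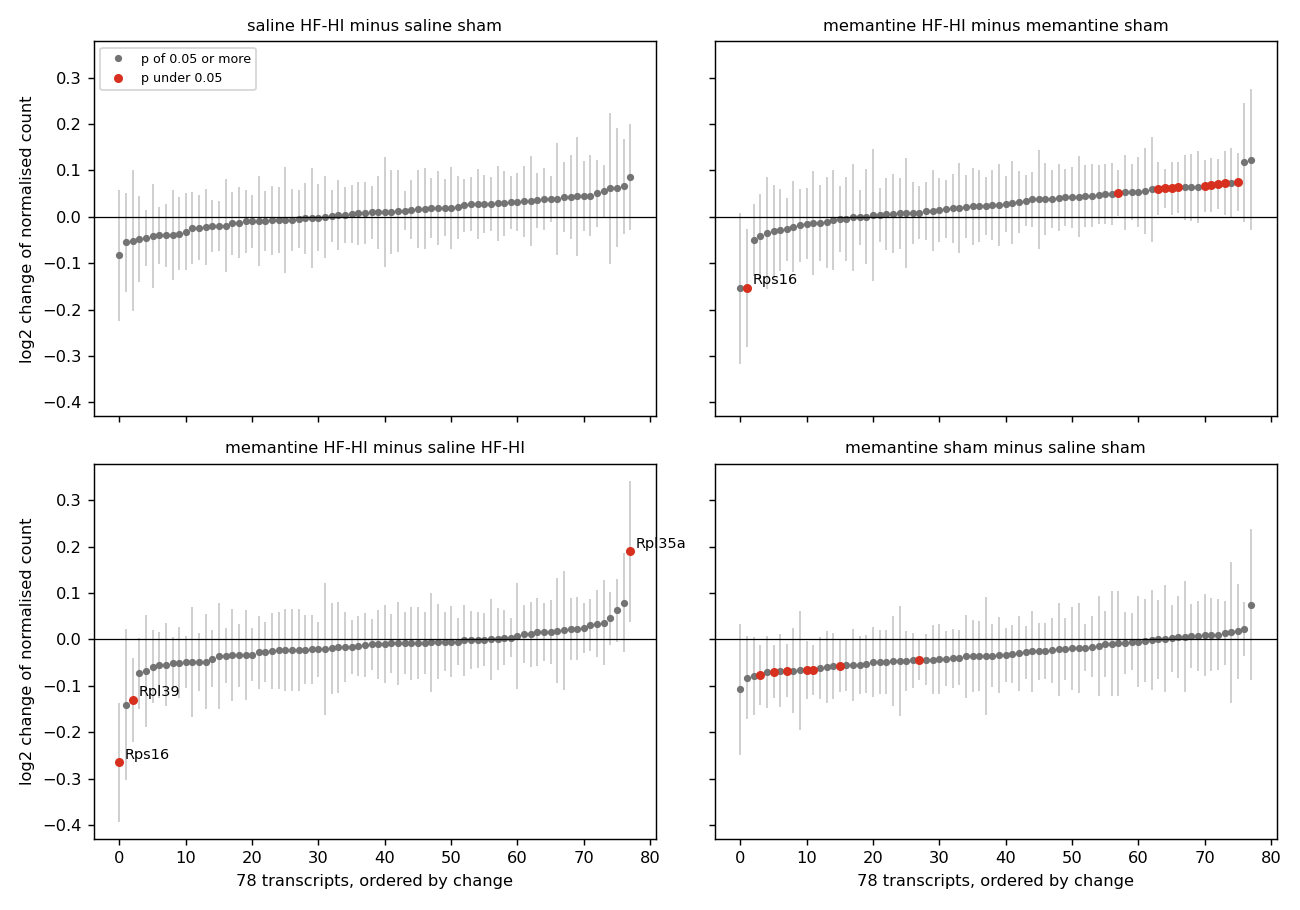
Log2 change of normalised count with its 95% interval (y axis) for 78 ribosomal protein transcripts (all but Rps27), ordered by change within each panel (x axis), in 4 contrasts. Red points have an unadjusted p under 0.05: 0, 11, 3 and 7 transcripts from the first panel to the last. None has an adjusted p under 0.1.

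For head impact under memantine, a larger share of members than of all transcripts was called, mostly with slightly higher counts. By limma, 11 of 79 members were called, 10 of them higher and 1 lower, where 4.61% of all transcripts were called (2.39% higher and 2.23% lower). The median member difference was 0.0149 on the deposited log2 scale and 1.78% in normalised count without Rps27. Of the member estimates 59 of 79 were positive, where 49.5% of those over all transcripts were. Members moved together between libraries (median r = 0.35), so neither the calls nor the signs are separate observations. Called higher were 5 of 42 large subunit transcripts, Rpl4, Rpl7, Rpl12, Rpl22 and Rpl23, and 5 of 32 small subunit transcripts, Rps3a1, Rps4x, Rps7, Rps15a and Rps27a. None of the 3 stalk transcripts was called. Rps16 was called lower. The 10 that were higher differed by 3.58% (Rps3a1) to 5.36% (Rpl23) and had adjusted p-values of 0.896 or more.

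Rpl4, whose protein lines the exit tunnel of the large subunit, had the smallest p of the contrast. Its lowest, median and highest normalised counts were 5323, 5635 and 6097 in memantine sham and 5605, 5878 and 6290 in memantine HF-HI. The groups overlapped, but 9 of 10 impacted libraries lay above the memantine sham mean. The difference was 4.37% (p = 0.0059, adjusted p = 0.896, limma) and a permutation test of the 10 against 10 values gave p = 0.0128. It kept a p under 0.05 in every alternative tried.

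Rpl12, which sits at the base of the stalk, ran from 2073 through a median of 2235 to 2349 in memantine sham and from 2183 through 2357 to 2465 in memantine HF-HI. These are broadly overlapping ranges with a difference of 5.05% (p = 0.0123, limma, and 0.0133 in the permutation test). Rps15a, a small subunit protein, ran from 2074 through 2116 to 2242 in memantine sham and from 2129 through 2248 to 2414 in memantine HF-HI, with 9 of 10 impacted libraries above the sham mean. Its difference was 4.68% (p = 0.0232, limma, and 0.0052 in the permutation test).

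Of the others, Rps27a, which is made as a fusion with ubiquitin, went from 1941 ± 91.2 to 2036 ± 88.4 (p = 0.0212). Rps4x, the X-linked form of the protein, went from 2809 ± 113 to 2931 ± 127 (p = 0.0391). Rpl22, which also binds other RNAs outside the ribosome, went from 1124 ± 44.2 to 1182 ± 53.7 (p = 0.0390). Rpl7 went from 3258 ± 127 to 3407 ± 182 (p = 0.0281), Rps7 from 2479 ± 111 to 2588 ± 114 (p = 0.0355), Rpl23 from 2156 ± 74.4 to 2274 ± 126 (p = 0.0211) and Rps3a1 from 3814 ± 183 to 3948 ± 119 (p = 0.0493, and 0.0653 in the permutation test). These are means ± SD of 10 libraries with unadjusted p-values of limma, and in all of them the 2 groups overlapped.

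Leaving out 1 library moved the count of called members from 11 to between 5 and 20. It was 20 without memantine sham replicate 9, 5 without memantine HF-HI replicate 8, and 6 without memantine sham replicate 4, memantine sham replicate 10 or memantine HF-HI replicate 1. The last of these libraries is one of the highest in the family as a whole, and memantine sham replicate 10 one of the lowest. With libraries weighted by their residual variance the count was 19.

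For memantine among sham mice, the share of members called (8.86%) was close to that of all transcripts (7.51%). All 7 called members of 79 were lower (limma), 4 large subunit transcripts (Rpl4, Rpl7, Rpl12, Rpl37) and 3 of the small subunit, Rps4x and Rps7 among them, against 3.67% of all transcripts called higher and 3.84% lower. The median member difference was -0.0172 on the deposited log2 scale. Of the member estimates 63 of 79 were negative, whereas 49.7% of those over all transcripts were positive. Here too members moved together between libraries, so these signs are not separate observations. This contrast and the one before share the memantine sham libraries, in which Rpl4, Rpl7, Rpl12, Rps4x and Rps7 stood lowest of the 4 groups, so the 2 sets of calls are not separate observations.

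The smallest p of the contrast was that of Rps7. It ran from 2424 through 2627 to 2728 in saline sham and from 2302 through 2468 to 2649 in memantine sham, overlapping over most of the range, with a difference of -4.70% (p = 0.0190, adjusted p = 0.616, limma, and 0.0206 in the permutation test). Rpl37 was at 1870 ± 91.4 in saline sham and 1773 ± 86.9 in memantine sham (p = 0.0221). Rps4x was at 2944 ± 113 and 2809 ± 113 (p = 0.0230), Rpl12 at 2335 ± 118 and 2230 ± 77.2 (p = 0.0197), Rpl7 at 3388 ± 102 and 3258 ± 127 (p = 0.0495) and Rpl4 at 5829 ± 147 and 5654 ± 195 (p = 0.0434, limma for all of these). The smallest p among positive estimates was that of Rps27 (p = 0.0945, limma). With the length slope as a covariate 4 members were called in place of 7, and the median member difference was -0.0072 in place of -0.0172. The mean slope was -0.0027 ± 0.0167 in saline sham and 0.0050 ± 0.0158 in memantine sham (SD, n = 10 each), and its part in the difference was not tested. The count was 3 when replicate 2 or 4 of saline sham or replicate 5 or 10 of memantine sham was left out, and 4 without replicate 10 of saline sham or replicate 4 of memantine sham.

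For memantine among impacted mice, 3 of 79 members (3.80%) were called by limma, which is the share of all transcripts called (3.91%, 1.52% higher and 2.39% lower). Rpl35a had a positive and Rps16 and Rpl39 a negative estimate, each with an adjusted p of 0.933 or more. The differences of Rps16 and Rpl35a were the largest of the family outside Rps27 in the 4 contrasts between groups. Rps16, whose tail reaches the transfer RNA in the small subunit, ran from 813 through 921 to 1055 in saline HF-HI and from 570 through 769 to 953 in memantine HF-HI. The 2 ranges overlapped, although 9 of 10 memantine HF-HI libraries lay below the saline HF-HI mean. The difference was -16.8% with a 95% interval from -23.9% to -9.05% (p = 0.00016, adjusted p = 0.933, limma, and 0.0012 in the permutation test). Saline sham, from 767 through 922 to 1012, was close to saline HF-HI, and memantine sham lay between, from 754 through 851 to 930. Against memantine sham the difference was -10.1% (p = 0.0242). In the alternatives tried, its p in the contrast of impacted mice ran from 1.6e-05 to 0.0012.

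Rpl39, a very small protein of the exit tunnel, ran from 1034 through 1124 to 1284 in saline HF-HI and from 942 through 1016 to 1169 in memantine HF-HI. Its difference was -8.65% (p = 0.0055, adjusted p = 0.9995, limma, and 0.0125 in the permutation test), with overlap and with 8 of 10 memantine HF-HI libraries below the saline mean. Rpl35a, of the large subunit, ran from 1002 through 1376 to 1815 in saline HF-HI and from 1302 through 1595 to 1795 in memantine HF-HI, a difference of 14.0% (p = 0.0160, limma, and 0.0371 in the permutation test) in one of the most variable members. Its highest library was in the group with the lower mean. The median member difference of the contrast was -0.0075 on the deposited log2 scale and 0.0065 with the length slope as a covariate, so its sign depended on that term, and 6 members were then called. The count was also 6 without memantine HF-HI replicate 1 or 8, and 5 with library weights or with the striatal marker mean.

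**Figure D4:**
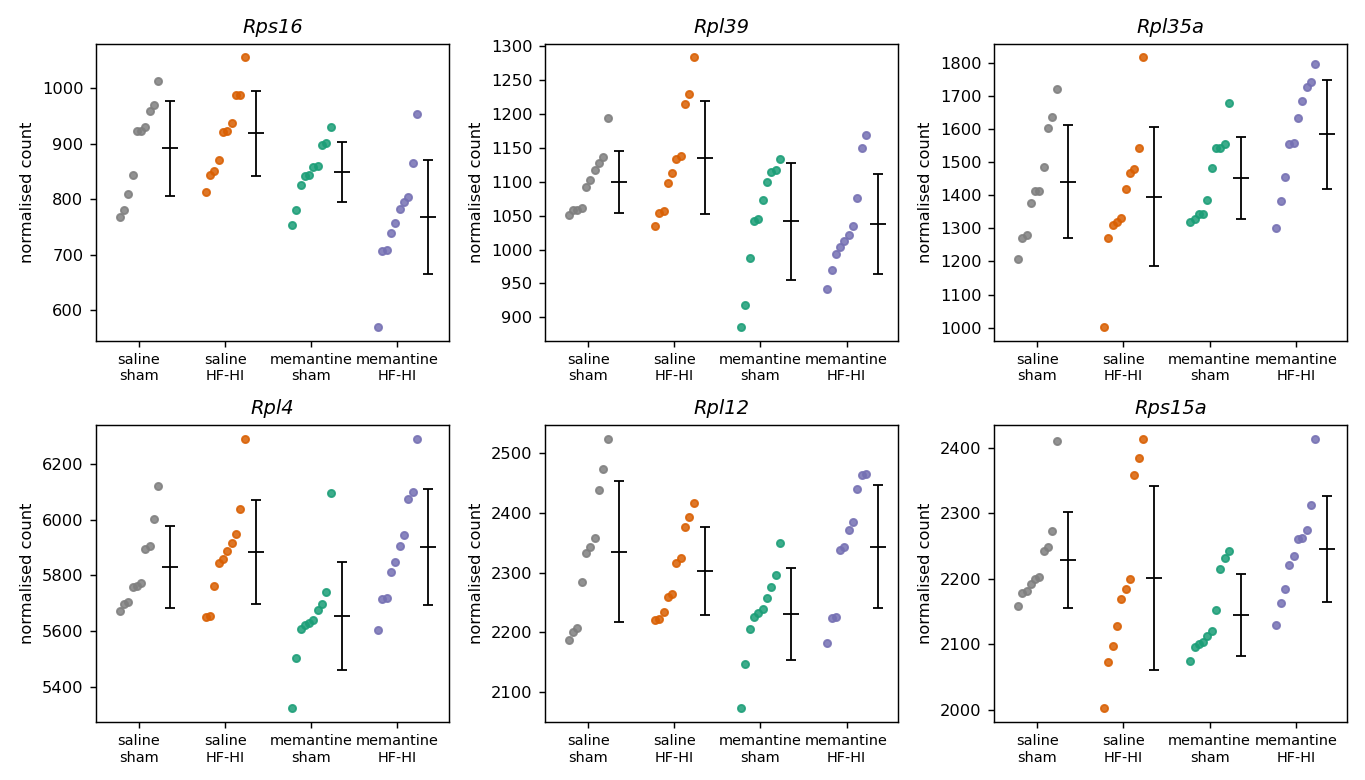
Normalised count (y axis) of 6 ribosomal protein transcripts in each library by group, with the group mean and SD (n = 10) beside the points; the axes do not start at 0. Rps16 was lowest in memantine HF-HI, Rpl4 and Rpl12 were lowest in memantine sham, and the groups overlap in each panel.

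The interaction, the impact effect under memantine minus that under saline, was called by limma for 4 of 79 members, Rpl12 and Rps15a with positive and Rps16 and Rps27 with negative estimates, where 3.73% of all transcripts were called (1.92% positive and 1.82% negative). For Rpl12 the estimate on the deposited log2 scale was 0.05 ± 0.02 (SE, p = 0.0226), for Rps15a 0.05 ± 0.02 (p = 0.0366) and for Rps16 -0.07 ± 0.03 (p = 0.0362, limma for each). Rpl12 and Rps15a stood lowest in memantine sham and Rps16 in memantine HF-HI. The interaction uses the same libraries as the contrasts above, so its calls are not separate observations. The call of Rps27 rested on libraries in which it was almost without reads. Without Rps27 the count was 3. Leaving out saline sham replicate 1 or 10, saline HF-HI replicate 3, 6, 8 or 9, or memantine HF-HI replicate 3 gave 2.

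Rps27 behaved unlike every other member. Its protein is a zinc-finger component of the small subunit, and a retrogene copy, Rps27rt, is also annotated. Rps27 had 4.96 to 7.19 normalised counts (5 to 7 reads) in 7 libraries and 1429 to 1940 in the other 33, with nothing between. The low libraries were saline sham replicates 1, 2 and 10, saline HF-HI replicate 2, and memantine HF-HI replicates 1, 2 and 3. None was in memantine sham. In the 33 high libraries its coefficient of variation was 6.33%, close to that of the rest of the family. Of the 50-base words of Rps27, 98.7% occur in transcripts of other genes, the highest share of all members with a sequence. The gene with most of them was Rps27rt, which was not analysed here. Group means of Rps27 are therefore set by how many low libraries a group holds. They were 1648 ± 105 in memantine sham, 1203 ± 830 in saline sham, 1525 ± 550 in saline HF-HI and 1165 ± 802 in memantine HF-HI (SD, n = 10 each). In no other member did a library fall under 5% of the median. The next lowest was 66.3% of it, in Rpl38. Over all rows, 160 of 6831 transcripts (2.34%) had such a library.

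A like pattern stood outside the family, in a pair of rows chosen after their values were seen. Atp6v0c, a subunit of the vacuolar proton pump, had 26.6 to 52.3 normalised counts in 6 libraries and 3717 or more in the others, and Atp6v0c-ps2 had 3883 to 4422 in those 6 and no more than 13.0 elsewhere. Their sum stayed between 3723 and 4735 in all 40. None of these 6 libraries was among the 7 low ones of Rps27.

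**Figure D5:**
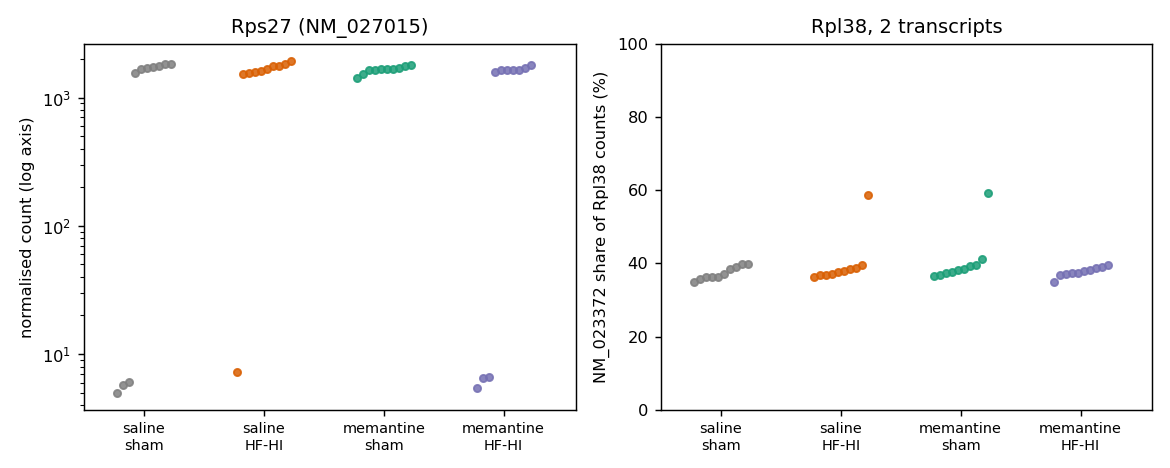
Left, normalised count of Rps27 in each library by group (log axis). Right, share (%) of the NM_023372 transcript in the summed counts of both Rpl38 transcripts. Rps27 is near 0 in 7 libraries, and the Rpl38 share stands apart in 2.

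For 2 genes the table held a pair of transcripts. Rpl38, a large subunit protein, had NM_001048058 at 973 and NM_023372 at 618 normalised counts on average. NM_023372 took 34.8% to 41.3% of their sum in 38 libraries, but 58.6% in saline HF-HI replicate 1 (923 against 652) and 59.2% in memantine sham replicate 8 (971 against 670). The 2 rows ran against each other over the libraries (r = -0.43 after group means were removed), while their sum varied by only 6.33%. Rps24, whose transcripts differ in short exons near the end of the coding part, had NM_011297 at 3041 and NM_207635 at 800. NM_207635 took 16.5% to 23.9% of the sum. Its lowest shares were in memantine sham replicate 8 (16.5%), saline sham replicate 6 (16.7%) and saline HF-HI replicate 1 (18.2%), so that both libraries with the unusual Rpl38 share were among the 3 lowest for Rps24. Of 8 permutation tests of these shares between groups, the smallest p was 0.106 (adjusted p = 0.610), for Rpl38 between memantine sham (40.4% ± 6.74) and saline sham (37.4% ± 1.75, SD, n = 10 each).

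Genes around the ribosome were read from lists of ribosome biogenesis factors, other TOP messenger RNAs, regulators of TOP translation, mitochondrial ribosomal proteins and oxidative phosphorylation. For comparison, the shares of all transcripts called higher and lower were 4.58% and 4.95% for head impact under saline, 2.39% and 2.23% for head impact under memantine, 1.52% and 2.39% for memantine among impacted mice and 3.67% and 3.84% for memantine among sham mice. Of 17 biogenesis transcripts, none was called for head impact under saline, 1 was higher for head impact under memantine (Npm1, a nucleolar chaperone, 1912 ± 301 to 2122 ± 178, p = 0.0376) and 3 were lower for memantine among sham mice (Rrp1, Nop56 and Ddx10, limma). Of 26 other TOP transcripts, 5 were called lower for memantine among sham mice, where 3.84% of all transcripts were, and none higher. Among them Eef1a1 was at 30204 ± 1288 in saline sham and 29029 ± 1004 in memantine sham (p = 0.0461), Eef1b2, a subunit of its exchange factor, at 1553 ± 65.0 and 1466 ± 92.3 (p = 0.0271), and Tpt1 at 3897 ± 134 and 3688 ± 189 (p = 0.0031, adjusted p = 0.462, limma). For head impact under saline 2 of the 26 were called, both higher. One was Eif4b, an initiation factor that assists the helicase Eif4a, at 4210 ± 165 in saline sham and 4473 ± 149 in saline HF-HI (SD, n = 10 each, adjusted p = 0.0845, limma), the only transcript of these lists with an adjusted p under 0.1. For head impact under memantine 2 of the 26 were also called, both higher. They were Eif4b, from 4242 ± 112 to 4378 ± 78.7 (p = 0.0303, limma), and Eif3m (p = 0.0275, limma). Fau and Rack1, whose products are part of the cytosolic ribosome under other names, were not called in any contrast.

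Of 14 transcripts of TOP and mTORC1 control, 2 were called higher for head impact under saline and 2 for memantine among sham mice, where 4.58% and 3.67% of all transcripts were. Deptor, an inhibitor of mTOR, was called in both. It was at 905 ± 84.2 in saline sham, 1016 ± 61.6 in memantine sham, 1016 ± 83.8 in saline HF-HI and 1024 ± 85.1 in memantine HF-HI (p = 0.0027 for impact and 0.0026 for memantine, adjusted p = 0.250 and 0.462, limma). Both comparisons use the same saline sham libraries. The other call for head impact under saline was Eif4e, the cap-binding protein. It was at 1677 ± 894 in saline sham and 2175 ± 171 in saline HF-HI (p = 0.0259, adjusted p = 0.457, limma). Its SD was 137 to 175 outside saline sham, so this call may rest on few libraries, which was not tested. Rptor, the mTORC1 scaffold, was the other for memantine among sham mice. For head impact under memantine Larp4 was called higher, from 847 ± 254 to 1128 ± 271 (p = 0.0274, limma). Deptor was also called in the interaction, with a negative estimate (p = 0.0397, limma). Mtor and Larp1 were not called in any contrast. Of 4 mitochondrial ribosomal protein transcripts, Mrps25 and Mrpl51 were lower for memantine among sham mice. Mrps25 was also called higher for head impact under memantine, and Mrpl51 in the interaction with a positive estimate (limma). Both stood lowest in memantine sham, whose libraries these comparisons share. For memantine among impacted mice 1 of the 4 was called, lower. Of 66 oxidative phosphorylation transcripts, 3 were called for head impact under saline, where 9.53% of all transcripts were, and none under memantine. In each comparison of memantine with saline 2 were called, both times lower, against 2.39% of all transcripts called lower among impacted and 3.84% among sham mice. Median differences of the members, the other TOP transcripts and oxidative phosphorylation for memantine among sham mice were -0.0172, -0.0105 and -0.0110 on the deposited log2 scale, against -0.0003 over all transcripts.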

How the data were processed

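RNA was extracted from cortex with Trizol, and per the labels an outside company prepared the libraries. The study's methods name STAR and eXpress for the authors' alignment and counting, whereas the submitters' processing notes name HISAT2 and StringTie with mm10, so which tools made this table is not settled here. The deposited values are variance-stabilised log2 values per RefSeq transcript, which the authors made from counts with DESeq2. They have a floor of 10.36 at a count of 0, and the lowest mean among the listed transcripts was 549.2 counts. The transformation was inverted to normalised counts, and size factors (0.859 to 1.141) were found that made 100% of values under 5000 whole within 0.05. Of all values, 92.3% lay under that level. Symbols, coordinates and promoter sequences came from RefSeq (symbols for 99.9% of transcripts). Contrasts were fitted with limma 3.58.1 in R 4.3.3 on the deposited log2 values of all 4 groups, with no covariate and with Benjamini-Hochberg adjustment over 6831 transcripts. The fit was tested on simulated data with log2 changes of 0.1 and 0.2 added. Of these, 74.8% and 90.6% had an unadjusted p under 0.05, as had 4.65% of unchanged transcripts (limma). Smaller changes, the size of most called member differences, were not simulated. Permutation tests were two-sided with 100000 resamples (Python 3.11.15, scipy 1.17.1).

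Members described with values are those with an unadjusted p under 0.05 or the smallest p in a direction in any contrast, the 3 highest and lowest per length, the 3 most and least variable, the pairs of transcripts of 1 symbol and the 10 transcripts most like the members' mean. Values of a few genes under this rule are not reported here. The members and lists were chosen with earlier results of these data known. Alternatives were another scale, other normalisations, a filter on low counts, library weights, covariates, summing by symbol, fits on the groups of a contrast alone, a replicate block and leaving out each library.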

Additional observations from a re-analysis of the deposited data

Results flagged for a closer look

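Of 84 sets of 10 libraries (21 quantities in 4 groups), 8 held a highest or lowest library that stood apart by Dixon's 95% criterion. Chance marks about 1 in 20 separate sets. These sets are not separate, since several marks fell in the same libraries, and the members described include the most variable ones. The 8 can therefore not be compared with that rate. For Rpl38 these were both transcripts in saline HF-HI replicate 1 (652.3 normalised counts for NM_001048058 and 923.3 for NM_023372) and in memantine sham replicate 8 (669.9 and 970.7), the low row and the high row of a pair whose sum moved little. For Rps27 it was saline HF-HI replicate 2 (7.194). The others were high values in single libraries, Rps3a1 at 4202 and Rps15a at 2411 in saline sham replicate 10, and Rps27a at 2166 in memantine sham replicate 9.

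The impact effect differed between memantine and saline, by limma's interaction term at an unadjusted p, for Rpl12 (0.0502 on the deposited log2 scale), Rps15a (0.04646), Rps16 (-0.07134) and Rps27 (-0.7158). The adjusted p was 0.999 for each, and these calls use the same libraries as the contrasts between groups. For Rps27, p was 0.0775 to 0.0777 (limma) when any 1 of its 3 low saline sham libraries was left out.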

How the results depend on the processing

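No member reached an adjusted p under 0.1 (limma) under any alternative in any contrast, and no called member changed sign. The number of members with an unadjusted p under 0.05 was 0 for head impact under saline (1 with the groups of the contrast alone, 1 with the striatal covariate, 2 with the length covariate, and 0 to 2 with each library left out), 11 for head impact under memantine (19 with library weights, 5 to 20 with each library left out), 3 for memantine among impacted mice (5 with library weights or the striatal covariate, 6 with the length covariate, 3 to 6 with each library left out), 7 for memantine among sham mice (4 with the length covariate, 3 to 10 with each library left out) and 4 for the interaction (7 with library weights, 2 to 6 with each library left out). The length covariate and the count without Rps27 were chosen after seeing the data. The 9 libraries without which 1 or 2 members were called for head impact under saline were saline sham replicates 1, 2, 4 and 10 and saline HF-HI replicates 2, 4, 5, 6 and 8. Median member differences moved by less than the spread between single libraries, a wide limit that a change of sign also passed. With each library left out they ran from -0.00058 to 0.0099, from 0.0066 to 0.0214, from -0.0145 to -0.0020, from -0.0222 to -0.0127 and from 0.0061 to 0.0162, in the order of the contrasts with the interaction last; with library weights the first was -0.00031, and with the length covariate the third was 0.0065 in place of -0.0075. With the striatal covariate the first was 0.0139 in place of 0.0054, the third -0.0128 and the interaction 0.0054 in place of 0.0110. The third was -0.0024 and the interaction 0.0192 with library weights, and with the length covariate the first was 0.0011 and the fourth -0.0072 in place of -0.0172. Of 580 values of called members with 1 library left out, 118 had a p over 0.05 (up to 0.109), as had 13 of 243 under other settings (up to 0.0947). The cause of these shifts was not tested.

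Libraries with the same replicate number did not deviate together (median r -0.00029 over 60 pairs, from -0.13 to 0.16, and 3 of 40 libraries correlated best with their own number), so the numbers do not pair them. With a replicate block the counts were 0, 10, 3, 7 and 4. Counting error exceeded the remaining spread between libraries for Rpl7l1 (4.00% against 3.67%), and reads shared with pseudogenes limit how far single members can be told apart.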
